A study of Mus musculus with 14 samples.

Results

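The mouse mitochondrial genome carries 37 genes, and all 37 genes whose symbol starts with mt- were listed in the deposited table of 52636 genes: 13 messenger RNAs, 2 ribosomal RNAs and 22 transfer RNAs. They were picked by symbol alone, without a cut on any measured value, but with earlier results of these data known. A filter of 1 CPM (counts scaled to a library total of 1000000) or more in 2 or more libraries was passed by 31 of them, namely 12 messengers, both ribosomal RNAs and 17 transfer RNAs. The other 6, mt-Atp8, mt-Tf, mt-Tv, mt-Ts1, mt-Td and mt-Tk, entered no test.

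The cells were transformed mouse embryonic fibroblasts (tMEF) in which the mouse telomere protein TRF1 had been replaced by the naked mole rat protein. By their titles all 7 groups carried the naked mole rat protein. GLAD cells carried the naked mole rat TRF1 with Glu69Lys, Val70Ala and Ala75Thr, TIN cells carried it with Ala105Thr, and the double mutant carried all 4 substitutions. Each mutant was grown at 1% oxygen (hypoxia) and in atmospheric oxygen (normoxia), and cells with the unmutated naked mole rat TRF1, called wild type here, in normoxia. All were kept in medium with 10% fetal calf serum. Each group had 2 libraries, A and B. The labels do not say whether these came from separate cultures or how many cell lines stood behind a genotype. The p-values weigh group differences only against the spread between libraries A and B. That spread is pooled over the 7 groups and drawn towards that of other genes, and it may be technical. Wild type cells in hypoxia were not analysed here. In the deposited table the wild type columns are headed with the word "Mouse", while their titles name the naked mole rat protein. Their descriptions also open with a name that holds "Mouse". It ends in a different number for library A and library B, whose meaning is not given. The titles were followed here, and which TRF1 the wild type cells carried was not tested. This doubt applies to every comparison with wild type.

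Mitochondrial DNA is read from both strands as long precursor RNAs. Transcription from the heavy-strand promoters gives both ribosomal RNAs, 12 of the 13 messengers and 14 of the transfer RNAs. Transcription from the light-strand promoter gives mt-Nd6 and the other 8 transfer RNAs. The precursors are cut mainly at the transfer RNAs that lie between the other genes, and the messengers encode subunits of respiratory complexes I, III, IV and V. The ribosomal RNA genes lie next to the heavy-strand promoters and mt-Cytb lies farthest downstream.

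Which of these genes could be counted differed along the genome. Coordinates are those of the GRCm38 annotation. A run of 6 neighbouring heavy-strand messengers between mt-Co1 and mt-Nd4, which are mt-Co2, mt-Atp8, mt-Atp6, mt-Co3, mt-Nd3 and mt-Nd4l, never exceeded 7.85 CPM in any library. The other 7 messengers had a median of 100 CPM or more over the 14 libraries and never fell below 40.2 CPM. This border was set after the values were seen. Per kilobase (kb) of gene, mt-Co1 averaged 1021 CPM over the 14 libraries, mt-Cytb 815 CPM, mt-Nd1 681 CPM and mt-Nd4 247 CPM, while mt-Co3 averaged 1.38 CPM and mt-Co2 0.806 CPM.

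Pieces of mitochondrial DNA have been copied into the nuclear genome. Of all stretches of 100 bases in mt-Co2, 99.5% were found unchanged in another annotated transcript, and the share was 99.5% for mt-Atp6, 99.9% for mt-Co3, 97.6% for mt-Nd3 and 98.5% for mt-Nd4l. It was 60.8% for mt-Nd4, 30.8% for mt-Co1 and 3.2% for mt-Nd2, and no such stretch was found for mt-Nd1, mt-Nd5, mt-Nd6, mt-Cytb or either ribosomal RNA. The matches of the 5 nearly identical messengers lay on the minus strand of chromosome 1, in pseudogenes side by side and in the same order as in the mitochondrial genome. The pseudogene Gm28661 (chr1:24614885-24615565) matched 681 of the 684 bases of mt-Co2 (chrM:7013-7696) with 0 mismatches. Gm10925 matched 678 bases of mt-Atp6 and Gm28437 783 bases of mt-Co3, also without a mismatch, and Gm28438 matched 345 bases of mt-Nd3 with 1 mismatch. Gm10222 matched 294 bases of mt-Nd4l and Gm28439 876 bases of mt-Nd4, both without a mismatch. mt-Atp8, the remaining gene of the run, had no identical stretch of 100 bases among the annotated transcripts. Its place in this order, between Gm10925 and Gm28661, holds no annotated transcript and was not analysed here. For mt-Co1 the longest match was Gm13340 on chromosome 2, with 1545 aligned bases and 37 mismatches, and Gm29216 beside Gm28661 matched 483 bases with 1 mismatch.

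The contrast between a gene that was hardly counted and a gene that was counted well is shown with 80 bases from the middle of each match, written 5′ to 3′ with differing bases in capitals. The sequences are from the GENCODE transcripts of GRCm38, and those from chromosome 1 (chr1:24615186-24615265, minus strand) and chromosome 4 (chr4:80004521-80004600, plus strand) are set against chrM:7313-7392 and chrM:14677-14756.
mt-Co2: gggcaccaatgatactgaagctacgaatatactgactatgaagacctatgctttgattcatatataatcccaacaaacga
Gm28661: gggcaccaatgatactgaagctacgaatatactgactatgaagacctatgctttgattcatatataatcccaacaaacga
mt-Cytb: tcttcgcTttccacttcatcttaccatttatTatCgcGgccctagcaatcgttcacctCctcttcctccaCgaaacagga
Gm11410: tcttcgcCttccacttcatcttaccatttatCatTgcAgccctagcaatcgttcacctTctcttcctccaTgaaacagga

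The first pair had no capitals, so a read from this stretch of mt-Co2 cannot be told from one of Gm28661. The second pair differed at 6 of 80 bases. The nuclear copies were themselves hardly counted: Gm28661 lay between 0.102 and 3.36 CPM, Gm10925 between 0.203 and 3.31 CPM and Gm28437 between 0.211 and 1.86 CPM over the 14 libraries. Gm28438, Gm10222 and Gm28439 never exceeded 0.782 CPM, Gm29216 lay between 0.422 and 3.06 CPM and Gm13340 between 0.509 and 2.70 CPM, and Gm11410 was at 0 in all 14. The submitters' processing notes name STAR, an aligner, and HTSeq, a read counter, but how reads with several equally good positions were treated is not given in the sources used here. The part of such reads in the low values was not tested.

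**Figure D1:**
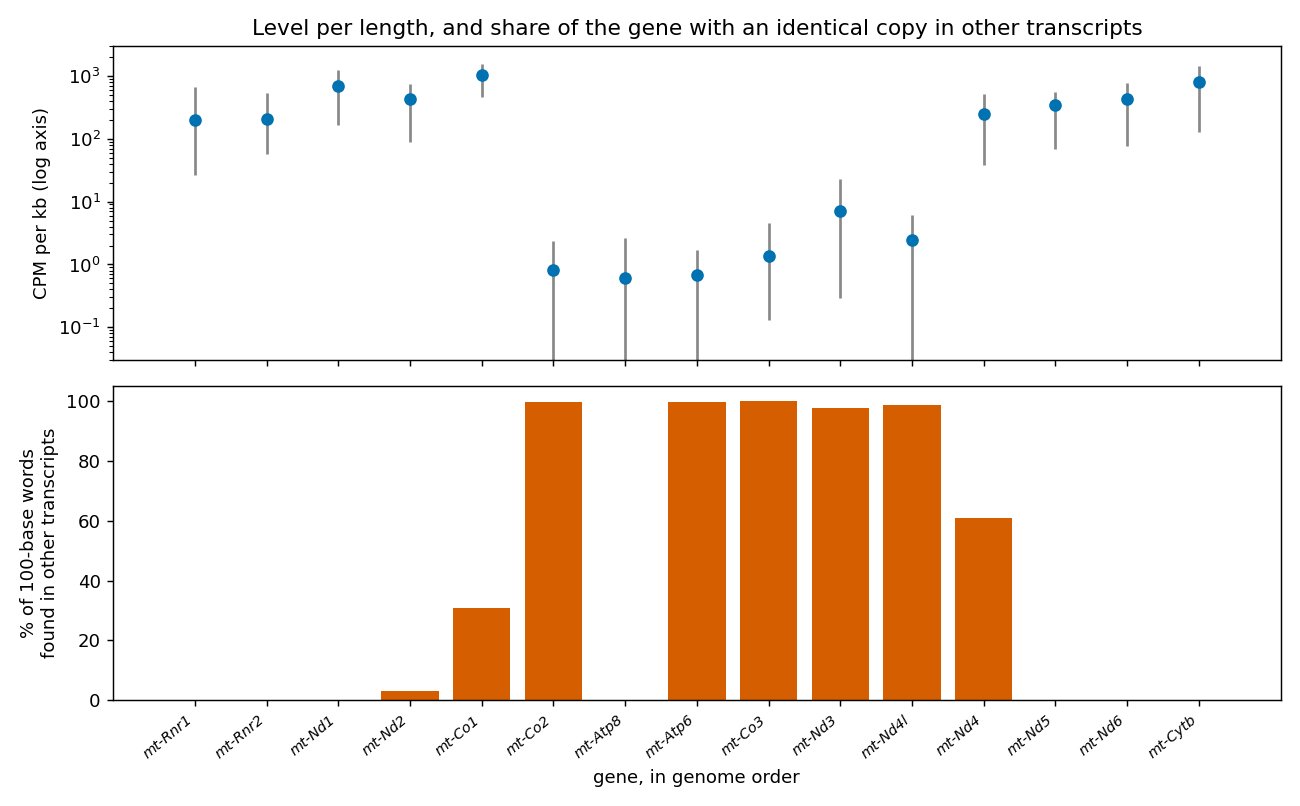
Upper plot: level per kilobase (CPM per kb, log axis) of the 13 messengers and 2 ribosomal RNAs in genome order, with points for the mean of 14 libraries and lines from the lowest to the highest library (lines of genes listed at 0 in a library run to the foot of the axis). Lower plot: share in percent of each gene's 100-base stretches found unchanged in another annotated transcript; the 5 genes with shares of 97.6% to 99.9%, and mt-Atp8 among them, are those with levels near or below 10 CPM per kb.

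Depth was similar across the libraries. The deposited CPM lie on even steps, and from these steps the libraries were estimated to hold 11917017 to 15023531 reads, so that 3 reads correspond to 0.2 to 0.252 CPM. The 37 genes together took between 0.156% and 0.838% of all CPM. Of 16 fibroblast markers 15 averaged at least 1 CPM, with sums of 8993 to 20040 CPM, while the marker lists of epithelial, endothelial, myeloid, muscle, neural and adipocyte cells summed to at most 401 CPM each. Terf1, the mouse gene of TRF1, had 85.2 to 186 CPM, and how reads of the introduced naked mole rat sequence were placed is not known. Agreement between the 2 libraries of a group varied. Over the 7 well-counted messengers, library A of TIN normoxia stood at 1.53 to 1.78 times library B, and library A of GLAD hypoxia at 1.39 to 1.59 times library B, while the ratios in the other 5 groups lay between 0.751 and 1.22. In wild type cells mt-Rnr1 was 4.61 times as high in library A as in library B. In bulk RNA a lower value can come from fewer cells of a type or less RNA per cell, which cannot be told apart.

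Tests used limma on log2(CPM + 0.5) after TMM scaling, across 16157 genes, and a gene was called where its p, adjusted by the Benjamini-Hochberg method over all of them, was below 0.05. Averaged over the 3 mutants, hypoxia lowered 16 of the 31 tested mitochondrial genes and raised 6. Of all tested genes 36.2% were called lower and 31.2% higher in the same comparison. The 7 well-counted messengers were all among the 16, and both ribosomal RNAs were among the 6.

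Of the ribosomal RNAs, mt-Rnr1 rose in hypoxia in each mutant and mt-Rnr2 rose in GLAD and TIN cells. mt-Rnr1 (chrM:70-1024), the RNA of the small mitochondrial ribosomal subunit, had 332 and 241 CPM in GLAD hypoxia, against 48.8 and 49.5 CPM in GLAD normoxia. In TIN cells it had 635 and 549 CPM in hypoxia, against 71.9 and 47.6 CPM in normoxia, and in the double mutant 136 and 143 CPM in hypoxia, against 33.7 and 25.5 CPM in normoxia. The hypoxic and normoxic libraries did not overlap in any mutant. With 2 libraries on each side such a separation, here and below, can arise by chance. The share of all genes separated by oxygen was not determined. The log2 change in mt-Rnr1 was 2.51 ± 0.40 (SE, adjusted p = 6.2e-05) in GLAD, 3.32 ± 0.40 (SE, adjusted p = 2.3e-06) in TIN and 2.23 ± 0.40 (SE, adjusted p = 0.00014) in the double mutant.

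mt-Rnr2 (chrM:1094-2675), the RNA of the large subunit, moved less. It had 408 and 279 CPM in GLAD hypoxia, against 158 and 184 CPM in GLAD normoxia, and 847 and 760.0 CPM in TIN hypoxia, against 356 and 217 CPM in TIN normoxia. In the double mutant it had 145 and 141 CPM in hypoxia, against 107 and 92.0 CPM in normoxia. It rose by 0.98 ± 0.24 (SE, adjusted p = 0.0024) in GLAD and 1.53 ± 0.24 (SE, adjusted p = 3.4e-05) in TIN on the log2 scale, while the change of 0.53 ± 0.24 (SE, adjusted p = 0.067) in the double mutant missed the threshold although its libraries did not overlap. It passed in 4 of the 14 fits that left out a library (each time without a TIN normoxia or wild type library), with only the groups compared in the fit (adjusted p = 8.3e-05) and with a length and GC trend removed (0.62, adjusted p = 0.014). The GLAD value depended on library A of GLAD hypoxia, without which it was 0.70 with an adjusted p of 0.066. The labels name total RNA and a TruSeq RNA kit and do not state whether RNA was selected by poly(A) tail or depleted of ribosomal RNA. Either step bears on the level of these RNAs.

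The 4 well-counted heavy-strand messengers of complex I, the NADH dehydrogenase, fell in hypoxia in GLAD cells and in the double mutant. mt-Nd1 (chrM:2751-3707) had 417 and 269.9 CPM in GLAD hypoxia, against 749 and 682 CPM in GLAD normoxia. In the double mutant it had 159 and 177 CPM in hypoxia, against 455 and 372 CPM in normoxia. In TIN cells it had 1079 and 941 CPM in hypoxia, against 1178 and 692 CPM in normoxia. The GLAD and double mutant groups were each fully separated, and both hypoxic TIN libraries lay between the normoxic ones. The log2 change was −1.09 ± 0.19 (SE, adjusted p = 0.00015) in GLAD, −1.29 ± 0.19 (SE, adjusted p = 1.7e-05) in the double mutant and 0.16 ± 0.19 (SE, adjusted p = 0.51) in TIN.

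mt-Nd2 (chrM:3914-4951), another complex I subunit, showed the same order. It had 262 and 189 CPM in GLAD hypoxia, against 488 and 511 CPM in GLAD normoxia, then 93.3 and 110.1 CPM in double mutant hypoxia, against 332 and 301 CPM in double mutant normoxia. The TIN libraries had 700.3 and 611 CPM in hypoxia, against 781 and 480.2 CPM in normoxia. The log2 change was −1.17 ± 0.17 (SE, adjusted p = 1.7e-05) in GLAD and −1.64 ± 0.17 (SE, adjusted p = 1.9e-07) in the double mutant, and 0.10 ± 0.17 (SE, adjusted p = 0.65) in TIN.

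mt-Nd4 (chrM:10167-11544), a proton-pumping subunit of complex I, fell in the same groups. It had 52.9 and 69.4 CPM in double mutant hypoxia, against 263 and 241 CPM in double mutant normoxia, and 187 and 127 CPM in GLAD hypoxia, against 391 and 429 CPM in GLAD normoxia. The TIN libraries had 482 and 405 CPM in hypoxia, against 548 and 318 CPM in normoxia. On the log2 scale mt-Nd4 fell by 2.05 ± 0.20 (SE, adjusted p = 1.3e-07) in the double mutant and it fell by 1.41 ± 0.20 (SE, adjusted p = 1.9e-05) in GLAD, with 0.08 ± 0.20 (SE, adjusted p = 0.76) in TIN. Since 60.8% of its stretches are also found elsewhere, most of them in Gm28439, its level per length is less certain than its change.

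mt-Nd5 (chrM:11742-13565), also a proton-pumping subunit, had 124 and 156 CPM in double mutant hypoxia, against 469 and 427 CPM in double mutant normoxia. GLAD cells had 460.4 and 305 CPM in hypoxia, against 853 and 940.3 CPM in normoxia, and TIN cells 874 and 728 CPM in hypoxia, against 955 and 570.0 CPM in normoxia. Its log2 change was −1.68 ± 0.19 (SE, adjusted p = 7.7e-07) in the double mutant, −1.26 ± 0.19 (SE, adjusted p = 3.5e-05) in GLAD and 0.11 ± 0.19 (SE, adjusted p = 0.65) in TIN.

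mt-Cytb (chrM:14145-15288), the only mitochondrially encoded subunit of complex III, had the largest fall of the well-counted messengers in GLAD cells and in the double mutant. In double mutant hypoxia it had 148 and 189 CPM, against 795 and 756 CPM in double mutant normoxia. In GLAD hypoxia it had 576 and 383 CPM, against 1209 and 1310.1 CPM in GLAD normoxia, and in TIN hypoxia 1108 and 961 CPM, against 1515 and 993 CPM in TIN normoxia. The double mutant and GLAD libraries were separated by oxygen and the TIN libraries overlapped. The log2 change was −2.21 ± 0.18 (SE, adjusted p = 9.4e-09), −1.42 ± 0.18 (SE, adjusted p = 3.9e-06) and −0.25 ± 0.18 (SE, adjusted p = 0.25) in the double mutant, GLAD and TIN, in that order.

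mt-Co1 (chrM:5328-6872), the catalytic core of complex IV or cytochrome c oxidase, had the smallest fall of the well-counted messengers. It had 1556 and 1118 CPM in GLAD hypoxia, against 1865 and 1883 CPM in GLAD normoxia, and 716 and 787 CPM in double mutant hypoxia, against 1254 and 1125 CPM in double mutant normoxia. In TIN cells it had 2059.9 and 1741 CPM in hypoxia, against 1942 and 1263 CPM in normoxia. Its log2 change was −0.51 ± 0.16 (SE, adjusted p = 0.014) in GLAD, −0.66 ± 0.16 (SE, adjusted p = 0.0018) in the double mutant and 0.27 ± 0.16 (SE, adjusted p = 0.16) in TIN. The GLAD call was lost without library A or without library B of GLAD normoxia, and without library B of GLAD hypoxia, with changes between −0.27 and −0.51, and with no filter on low values (−0.51, adjusted p = 0.095).

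mt-Nd6 (chrM:13552-14070), the single messenger read from the light-strand promoter and a further subunit of complex I, followed the heavy-strand messengers in GLAD cells and the double mutant. It had 153 and 96.0 CPM in GLAD hypoxia, against 284 and 289.6 CPM in GLAD normoxia, and 40.2 and 53.5 CPM in double mutant hypoxia, against 152 and 148 CPM in double mutant normoxia. The log2 change was −1.24 ± 0.21 (SE, adjusted p = 9.3e-05) in GLAD and −1.68 ± 0.21 (SE, adjusted p = 2.1e-06) in the double mutant. In TIN cells it had 369 and 306 CPM in hypoxia, against 308 and 173 CPM in normoxia, so that the groups overlapped by library A of normoxia. The TIN change of 0.54 ± 0.21 (SE, adjusted p = 0.036) was called, but not without library B of TIN normoxia (0.13, adjusted p = 0.64), without library A of TIN hypoxia (0.40, adjusted p = 0.23), on CPM as deposited (0.51, adjusted p = 0.065) or with only the groups compared in the fit (adjusted p = 0.083). mt-Nd6 shares 14 bases of its end with mt-Nd5 on the opposite strand, and whether the counting used strand is not given.

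**Figure D2:**
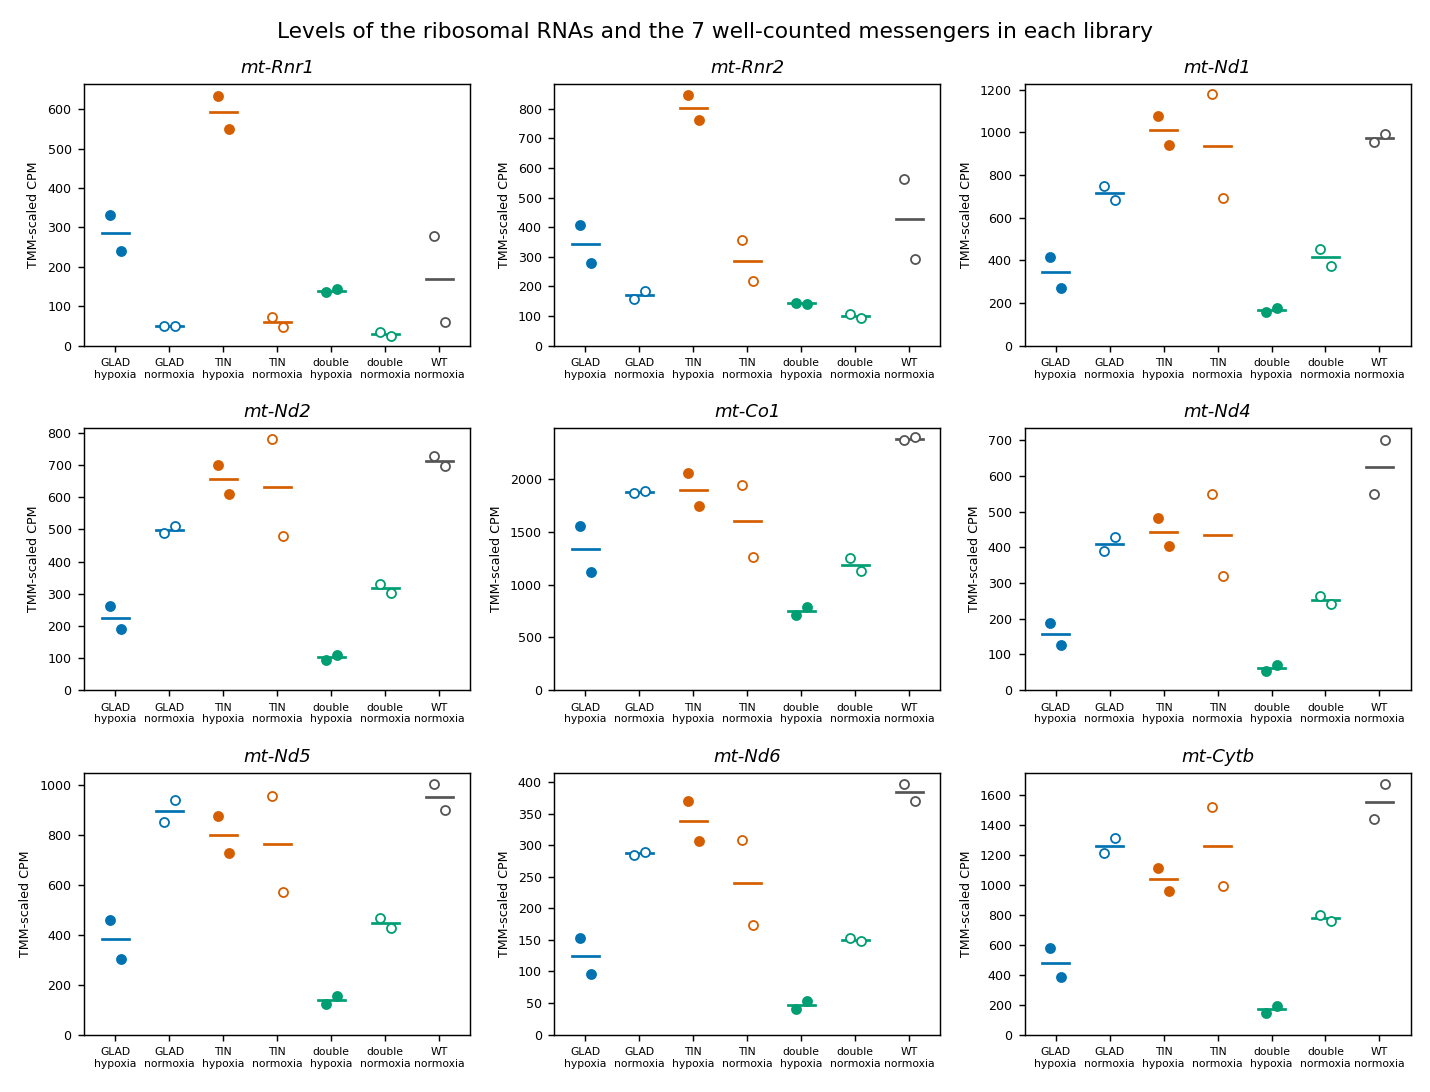
Level of mt-Rnr1, mt-Rnr2 and the 7 well-counted messengers (TMM-scaled CPM, linear axes from 0) in each of the 14 libraries, with filled points for hypoxia, open points for normoxia and a bar for the mean of the 2 libraries. The 7 messengers are lower in hypoxia in GLAD cells and in the double mutant and overlap in TIN cells, while both ribosomal RNAs are higher in hypoxia in all 3. The share of all genes separated in this way was not determined.

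By mutant, the counts of members called were as follows. In GLAD cells 16 of 31 were lower and 3 higher in hypoxia, where 26.0% of all genes were lower and 22.0% higher. In the double mutant 17 were lower and 1, mt-Rnr1, was higher, where 29.7% of all genes were lower and 26.3% higher. In TIN cells 12 were higher and 0 lower, where 26.8% of all genes were higher and 27.3% lower. Of the 11 heavy-strand messengers tested, 8 were lower in GLAD and 8 were lower in the double mutant (0 were higher in either), and 2 were higher in TIN, with 0 lower. Their median log2 change was −0.89 in GLAD, −1.02 in the double mutant and 0.11 in TIN, while the median over all tested genes was −0.04, −0.04 and 0.01 in the same order. These counts cover only genes that passed the filter.

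The TIN result rested on its normoxic libraries, which differed from each other. The share of all genes called in a fit that left out a library was not determined. Counts of members from such fits, here and below, therefore describe the members only. With library A of TIN normoxia left out, 22 members were higher in hypoxia, and with library B left out 9 members were called, 6 higher and 3 lower. For the 7 well-counted messengers, 5 were called higher without library A, and without library B 1, mt-Cytb, was called lower (−0.55, adjusted p = 0.024). mt-Rnr1 and mt-Rnr2 remained called in both cases.

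**Figure D3:**
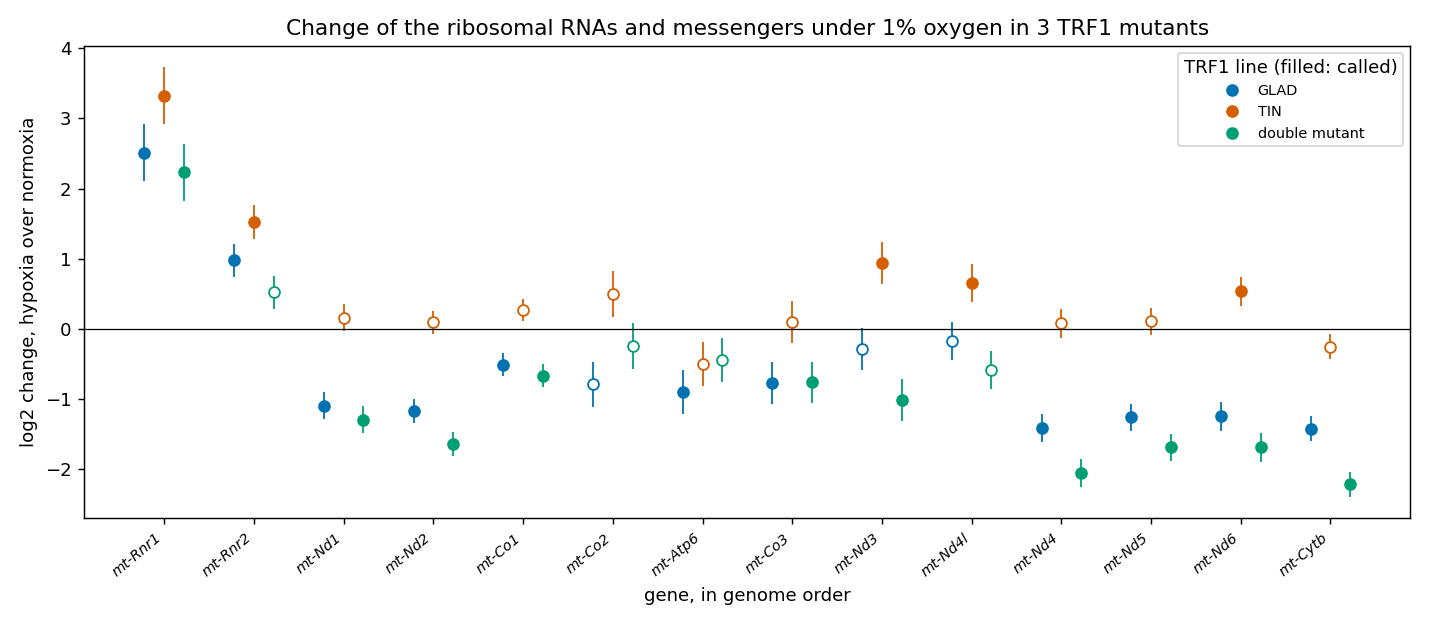
Log2 change of the 14 tested messengers and ribosomal RNAs between hypoxia and normoxia in the 3 TRF1 mutants, in genome order, with bars for the standard error from limma and filled points for calls. The points of the 2 ribosomal RNAs lie above 0 in all 3 mutants, and those of the 7 well-counted messengers lie at −0.51 or below in GLAD and the double mutant and between −0.25 and 0.54 in TIN, where the filled point of mt-Nd6 is the highest.

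The 5 thinly counted heavy-strand messengers that passed the filter did so with few reads. mt-Nd3 and mt-Nd4l encode complex I subunits, mt-Co2 and mt-Co3 complex IV subunits and mt-Atp6 a subunit of complex V, the ATP synthase. mt-Nd3 (chrM:9459-9806), the highest of them, had 4.26 and 4.40 CPM in TIN hypoxia, against 3.17 and 1.23 CPM in TIN normoxia, and 0.369 and 0.102 CPM in double mutant hypoxia, against 1.08 and 0.851 CPM in double mutant normoxia. It rose by 0.94 ± 0.30 (SE, adjusted p = 0.013) in TIN and fell by 1.02 ± 0.30 (SE, adjusted p = 0.0076) in the double mutant, with −0.29 ± 0.30 (SE, adjusted p = 0.45) in GLAD. mt-Co3 changed by −0.77 ± 0.30 (SE, adjusted p = 0.041) in GLAD and −0.76 ± 0.30 (SE, adjusted p = 0.038) in the double mutant, and mt-Atp6 by −0.89 ± 0.32 (SE, adjusted p = 0.027) in GLAD. These calls were weak. That of mt-Co3 was lost in GLAD without any one of the 4 GLAD libraries and in the double mutant without any one of its 4 libraries. That of mt-Nd3 was lost in TIN without library B of TIN normoxia (0.39, adjusted p = 0.30) or either TIN hypoxia library, and in the double mutant without library A of its normoxia or library B of its hypoxia. That of mt-Atp6 in GLAD was lost without library A of GLAD normoxia or library B of GLAD hypoxia. mt-Nd4l rose by 0.66 ± 0.27 (SE, adjusted p = 0.047) in TIN, a call lost in 8 of the 14 fits that left out a library. mt-Co2 was called in none of the 3 mutants, at −0.79 in GLAD, 0.50 in TIN and −0.24 in the double mutant, though the GLAD change was called without any one of the TIN normoxia or wild type libraries (adjusted p = 0.034 to 0.035). It was listed at 0 in both double mutant hypoxia libraries and reached 1 CPM in 3 of 14 libraries. mt-Atp8, the second complex V gene, lay between 0 and 0.535 CPM and exceeded the level of 3 reads in 3 libraries. With the pseudocount of 0.5 CPM these changes understate larger ones.

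The transfer RNAs are described by strand and place, but their changes did not separate by strand, and no grouping was tested. Whether the counting used strand is not given, so reads of a transfer RNA and of a precursor from the opposite strand cannot be told apart. The transfer RNA genes are 59 to 75 bases long and lie beside other genes. Reads of uncut precursors from the same strand may therefore be counted too. How much of a value came from the finished transfer RNA was not tested. By CPM, unadjusted for length, mt-Tl1, the leucine transfer RNA between mt-Rnr2 and mt-Nd1, had the highest median over the 14 libraries at 37.1 CPM, and mt-Te, the glutamate transfer RNA between mt-Nd6 and mt-Cytb, followed at 21.4 CPM. mt-Tl1 had 23.9 and 15.9 CPM in GLAD hypoxia, against 36.5 and 46.6 CPM in GLAD normoxia, and 7.91 and 7.87 CPM in double mutant hypoxia, against 27.6 and 22.6 CPM in double mutant normoxia. It fell by 1.06 ± 0.21 (SE, adjusted p = 0.00044) in GLAD and fell by 1.60 ± 0.21 (SE, adjusted p = 4e-06) in the double mutant, with −0.43 ± 0.21 (SE, adjusted p = 0.091) in TIN. mt-Te had 2.16 and 3.00 CPM in double mutant hypoxia, against 15.5 and 13.6 CPM in double mutant normoxia, a log2 change of −2.30 ± 0.25 (SE, adjusted p = 4.2e-07), and fell by 1.54 ± 0.25 (SE, adjusted p = 6.3e-05) in GLAD.

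A cluster of 4 light-strand transfer RNAs between mt-Nd2 and mt-Co1 (chrM:5018-5326), for alanine, asparagine, cysteine and tyrosine, moved the other way in TIN cells. mt-Tc, for cysteine, had 15.8 and 14.7 CPM in TIN hypoxia, against 2.54 and 2.02 CPM in TIN normoxia. mt-Ty, for tyrosine, had 9.58 and 8.85 CPM in TIN hypoxia, against 1.86 and 0.836 CPM in TIN normoxia, and mt-Tn, for asparagine, 17.2 and 15.0 CPM in TIN hypoxia, against 4.69 and 2.65 CPM in TIN normoxia. All 3 were separated by oxygen. They rose in TIN by 2.51 ± 0.40 (SE, adjusted p = 5e-05), 2.45 ± 0.33 (SE, adjusted p = 7.5e-06) and 2.03 ± 0.36 (SE, adjusted p = 0.00015), in that order. mt-Ta, for alanine, rose by 1.16 ± 0.33 (SE, adjusted p = 0.0064), a call lost without library B of TIN normoxia (0.59, adjusted p = 0.17) and without library A of TIN hypoxia (1.05, adjusted p = 0.053).

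In GLAD cells mt-Ty rose by 1.13 ± 0.33 (SE, adjusted p = 0.009), a call lost without library B of GLAD normoxia or library A of GLAD hypoxia, while mt-Tc had 10.6 and 5.69 CPM in hypoxia, against 7.63 and 3.04 CPM in normoxia, and was not called (0.63 ± 0.40, SE, adjusted p = 0.22). None of the 4 was called in the double mutant, where the largest change was that of mt-Tc at 0.72 ± 0.40 (SE, adjusted p = 0.14). The hypoxia effect in TIN exceeded that in GLAD by 1.88 ± 0.57 (SE, adjusted p = 0.017) for mt-Tc, 2.07 ± 0.52 (SE, adjusted p = 0.0053) for mt-Tn, 1.74 ± 0.47 (SE, adjusted p = 0.0085) for mt-Ta and 1.32 ± 0.47 (SE, adjusted p = 0.037) for mt-Ty. mt-Tw, for tryptophan, is read from the other strand and directly borders the cluster. It fell by 1.03 ± 0.21 (SE, adjusted p = 0.00065) in GLAD and fell by 1.35 ± 0.21 (SE, adjusted p = 3.2e-05) in the double mutant, and the messengers on either side, mt-Nd2 and mt-Co1, fell too.

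Of the 10 heavy-strand transfer RNAs tested, 6 fell in GLAD, 6 in the double mutant and none in TIN, where mt-Ti (1.05) and mt-Tr (1.03) rose. Of all genes 26.0% were lower in GLAD, 29.7% in the double mutant and 27.3% in TIN, where 26.8% were higher. mt-Tm, for methionine, fell by 1.12 ± 0.23 (SE, adjusted p = 0.00074) in GLAD, and mt-Tl2, the second leucine transfer RNA, changed by −1.43 ± 0.38 (SE, adjusted p = 0.0045) in GLAD and −1.15 ± 0.38 (SE, adjusted p = 0.014) in the double mutant. mt-Ts2 (−0.78) and mt-Tt (−0.75) fell in GLAD, and mt-Th (−1.08), mt-Tg (−0.91) and mt-Tt (−0.62) in the double mutant. The hypoxic values behind these falls rest on few reads. mt-Ts2 had 0.148 and 0.254 CPM in GLAD hypoxia. In double mutant hypoxia mt-Th had 0.211 and 0.102 CPM and mt-Tg 0.211 and 0 CPM. mt-Tt had 0.835 and 0.712 CPM in GLAD hypoxia and 0.369 and 0.254 CPM in double mutant hypoxia. The rises in TIN also started from low values. mt-Ti had 3.21 and 2.85 CPM in TIN hypoxia, against 1.66 and 0.836 CPM in TIN normoxia. mt-Tr had 1.35 and 2.30 CPM in TIN hypoxia, against 0.977 and 0.344 CPM in TIN normoxia. Among the light-strand transfer RNAs mt-Tq, for glutamine, rose in TIN by 1.39 ± 0.32 (SE, adjusted p = 0.0014), and mt-Tp, for proline, changed by −0.66 ± 0.19 (SE, adjusted p = 0.0074) in the double mutant. The 5 transfer RNAs that failed the filter stayed below 1 CPM in every library. mt-Tk, for lysine, was at 0 in all 14, which at 3 reads allows up to 0.2 to 0.252 CPM.

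The hypoxia effect itself was compared between mutants by interaction terms in the same model. Between TIN and GLAD it differed for 21 of 31 members, all in the higher direction, where 17.7% of all genes were called higher and 16.6% lower. All 7 well-counted messengers were among them, with differences of 0.78 (mt-Co1) to 1.78 (mt-Nd6) on the log2 scale. For mt-Nd4 the difference was 1.49 ± 0.29 (SE, adjusted p = 0.00086). Without library B of TIN normoxia 10 members were called, without library A of GLAD normoxia 13 and without library B of GLAD hypoxia 13, and of the 7 messengers all but mt-Co1 stayed called in each of these fits. The mt-Co1 call was lost without library B of TIN normoxia, B of GLAD hypoxia or A of TIN hypoxia, and with no filter on low values (0.76, adjusted p = 0.10).

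Between the double mutant and TIN the effect differed for 23 members, all lower, where 22.0% of all genes were lower and 20.9% higher. All 7 well-counted messengers were again among them, from −0.94 for mt-Co1 to −2.22 for mt-Nd6, and mt-Rnr2 differed by −0.999 ± 0.33 (SE, adjusted p = 0.023), a call lost in 5 of the 14 fits that left out a library. Without library B of TIN normoxia 14 members were called, with all 7 messengers still called. Between the double mutant and GLAD 1 member differed, mt-Cytb at −0.79 ± 0.25 (SE, adjusted p = 0.042), where 7.37% of all genes were lower. That call was lost in 8 of the 14 fits that left out a library and on CPM as deposited (−0.81, adjusted p = 0.052). For mt-Rnr1 no difference between the hypoxia effects was called with all libraries in the fit, at 0.81 ± 0.57 (SE, adjusted p = 0.29) between TIN and GLAD, −1.09 ± 0.57 (SE, adjusted p = 0.13) between the double mutant and TIN and −0.28 ± 0.57 (SE, adjusted p = 0.8) between the double mutant and GLAD. The first 2 of these were called without library A of wild type (adjusted p = 0.0024 and 0.00011), without library B of wild type (0.0024 and 0.00011) and with only the groups compared in the fit (0.0008 and 0.00024). The sizes were unchanged there, since wild type enters these comparisons only through the estimate of the spread. For mt-Rnr2 the difference of 0.55 ± 0.33 (SE, adjusted p = 0.22) between TIN and GLAD was called in the same 3 fits (adjusted p = 0.047, 0.048 and 0.039). The pairs of mutants share groups, so these comparisons are not independent.

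The make-up of the mitochondrial RNA also differed with oxygen. Ribosomal RNA made up 16.6 and 16.9 percent of the mitochondrial CPM in GLAD hypoxia, against 3.35 and 3.64 percent in GLAD normoxia. The shares were 17.7 and 18.2 percent in TIN hypoxia, against 5.46 and 5.46 percent in TIN normoxia, and 17.1 and 15.3 percent in double mutant hypoxia, against 3.57 and 3.31 percent in double mutant normoxia. The 6 hypoxic libraries thus lay between 15.3 and 18.2 percent, above all 8 normoxic ones, although the summed mitochondrial level of TIN hypoxia was 8351 and 7177 CPM and that of double mutant hypoxia 1648 and 1859 CPM. The 2 wild type libraries stood apart from each other, at 9.84 and 4.24 percent. mt-Rnr2 was 1.23 and 1.16 times as high as mt-Rnr1 in GLAD hypoxia, 1.33 and 1.38 times in TIN hypoxia and 1.07 and 0.985 times in double mutant hypoxia, against 3.25 and 3.71 times in GLAD normoxia, 4.96 and 4.57 times in TIN normoxia and 3.17 and 3.61 times in double mutant normoxia. In wild type normoxia it was 2.02 times as high in library A and 4.83 times in library B.

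Among the 7 well-counted messengers mt-Co1 gained share. It held 43.1 and 45.0 percent of their summed CPM in GLAD hypoxia, against 31.9 and 31.1 percent in GLAD normoxia, and 53.7 and 51.0 percent in double mutant hypoxia, against 33.7 and 33.4 percent in double mutant normoxia. In TIN cells it held 30.9 and 30.6 percent in hypoxia, against 26.9 and 28.1 percent in normoxia, and in wild type normoxia 31.9 and 31.0 percent. mt-Cytb lost share in all 3 mutants. It held 15.96 and 15.4 percent in GLAD hypoxia, against 20.7 and 21.7 percent in GLAD normoxia, and 16.6 and 16.9 percent in TIN hypoxia, against 21.0 and 22.1 percent in TIN normoxia. In double mutant hypoxia it held 11.1 and 12.3 percent, against 21.4 and 22.4 percent in double mutant normoxia. The shares are descriptions of these libraries and were not tested.

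The ratio of mt-Cytb, at the far end of the heavy-strand precursor, to mt-Nd1, near its start, was 1.03 and 1.02 in TIN hypoxia, against 1.29 and 1.44 in TIN normoxia, and 0.926 and 1.07 in double mutant hypoxia, against 1.75 and 2.03 in double mutant normoxia. In GLAD cells it was 1.38 and 1.42 in hypoxia, against 1.61 and 1.92 in normoxia. Over the 2 ribosomal RNAs and 6 well-counted heavy-strand messengers, the start position and the log2 change with hypoxia had a Spearman correlation of −0.90 in GLAD, −0.83 in TIN and −0.90 in the double mutant (n = 8 genes). Over the 6 messengers alone it was −0.77, −0.60 and −0.77, in the same order. These genes come from one precursor and the same libraries, and the correlations are given as a description only.

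**Figure D4:**
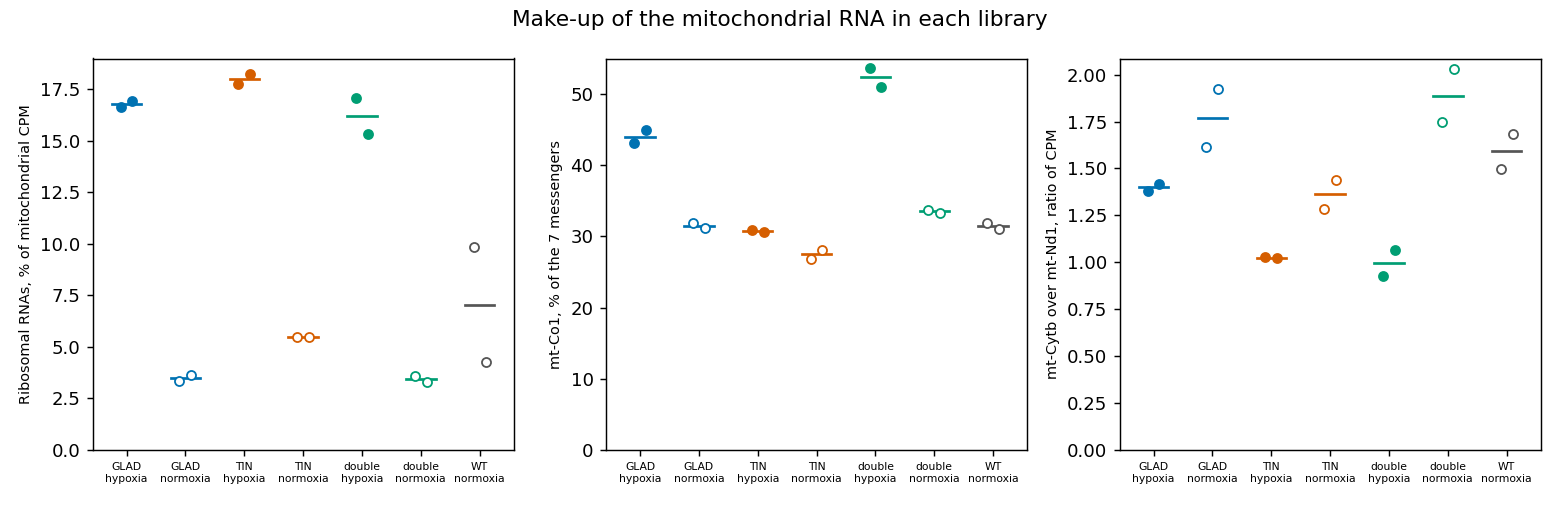
Make-up of the mitochondrial RNA in each library, from left to right the percent of mitochondrial CPM in the 2 ribosomal RNAs, the percent of the summed CPM of the 7 well-counted messengers in mt-Co1, and the ratio of mt-Cytb to mt-Nd1 CPM, with filled points for hypoxia, open points for normoxia and bars for the mean of 2 libraries. The 6 hypoxic libraries lie between 15.3 and 18.2 percent in the left plot, above the 8 normoxic ones.

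Compared with wild type in normoxia, the double mutant was lower for nearly every gene tested. Of 31 members 30 were lower in the double mutant, where 28.0% of all genes were lower. The other, mt-Tm, was at −0.49 ± 0.23 (SE, adjusted p = 0.083). Among the 30, mt-Ts2 and mt-Atp6 passed the filter only through the wild type libraries. mt-Nd1 had 455 and 372 CPM in double mutant normoxia, against 957 and 993 CPM in wild type normoxia, and mt-Co1 had 1254 and 1125 CPM in double mutant normoxia, against 2369 and 2399.6 CPM in wild type normoxia. Their log2 differences were −1.24 ± 0.19 (SE, adjusted p = 2.9e-05) and −1.01 ± 0.16 (SE, adjusted p = 3.7e-05), in that order. The 7 well-counted messengers had log2 differences between −0.997 (mt-Cytb) and −1.35 (mt-Nd6), with no overlap between the libraries, and each was called in every fit that left out a library. For mt-Nd3, thinly counted, the difference was −2.25 ± 0.30 (SE, adjusted p = 5.7e-06).

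Fewer members were called in GLAD and TIN cells. In GLAD normoxia 17 members were lower and 1 higher, where 27.9% of all genes were lower and 27.4% higher, and in TIN normoxia 21 were lower and 1 higher, where 29.8% of all genes were lower and 30.2% higher. The member that was higher was mt-Tm in both, with 5.25 and 6.56 CPM in GLAD normoxia and 6.79 and 4.18 CPM in TIN normoxia, against 3.77 and 2.42 CPM in wild type normoxia. Its log2 difference was 0.85 ± 0.23 (SE, adjusted p = 0.0052) in GLAD and 0.73 ± 0.23 (SE, adjusted p = 0.013) in TIN. Of the 7 well-counted messengers 2 were lower in GLAD, mt-Nd2 (−0.51 ± 0.17, SE, adjusted p = 0.014) and mt-Nd4 (−0.60 ± 0.20, SE, adjusted p = 0.018). In TIN 3 were lower, mt-Co1 (−0.61 ± 0.16, SE, adjusted p = 0.0031), mt-Nd4 (−0.57 ± 0.20, SE, adjusted p = 0.021) and mt-Nd6 (−0.73 ± 0.21, SE, adjusted p = 0.0058). The TIN counts turned on its own libraries: 7 of the 7 were called without library A of TIN normoxia and 0 without library B, and over all members 9 were called without library B. In GLAD the libraries of 6 of the 7 lay below both wild type libraries. With 2 libraries on each side such a separation can arise by chance. The share of all genes separated in this way was not determined, here or for the double mutant. By the test 0 of the 7 were called without library A of GLAD normoxia or with no filter on low values, and 1 without library B of wild type. In the same comparison 5 were called without library A or without library B of TIN normoxia, 4 with a length and GC trend removed and 6 with only the groups compared in the fit. The mt-Tm call was lost without library B of wild type in both mutants, without library B of GLAD normoxia in GLAD and without library A of TIN normoxia in TIN. The 3 mutants share the wild type libraries.

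Some thinly counted transfer RNAs set wild type apart from all 3 mutants. mt-Ts2, a serine transfer RNA next to mt-Nd4, had 0.826 and 0.588 CPM in GLAD normoxia, 0.977 and 0.836 CPM in TIN normoxia and 0.641 and 0.300 CPM in double mutant normoxia, against 7.03 and 3.37 CPM in wild type normoxia. Its log2 difference from wild type was −2.17 ± 0.31 (SE, adjusted p = 1.3e-05) in GLAD, −1.94 ± 0.31 (SE, adjusted p = 2.8e-05) in TIN and −2.50 ± 0.31 (SE, adjusted p = 2.2e-06) in the double mutant. mt-Ts2 reached 1 CPM in 3 libraries, both of wild type and library B of TIN hypoxia. It thus passed the filter only through the group in which it was high, and its calls against wild type are a description. mt-Th and mt-Tl2, the neighbours of mt-Ts2 on both sides, differed from wild type by −1.88 and −1.59 in GLAD, −1.81 and −1.31 in TIN and −2.43 and −2.10 in the double mutant, and all 6 of these differences were called.

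mt-Rnr1 was lower in all 3 mutants than in wild type, at −1.39 in GLAD, −1.14 in TIN and −2.13 in the double mutant, all called. The wild type libraries were at 278 and 60.3 CPM. Without library A of wild type the difference was −0.29 in GLAD and −0.04 in TIN, neither called (adjusted p = 0.16 and 0.85), and −1.03 in the double mutant, still called. The TIN call was also lost without library B of TIN normoxia (−0.85, adjusted p = 0.17), and the GLAD and TIN calls where only the 2 groups compared were fitted (adjusted p = 0.094 and 0.16). mt-Rnr2 was lower in GLAD (−1.24 ± 0.24, SE, adjusted p = 0.00026) and the double mutant (−2.02 ± 0.24, SE, adjusted p = 1.2e-06), with −0.54 ± 0.24 (SE, adjusted p = 0.057) in TIN. The TIN value was −0.06 without library A of wild type (adjusted p = 0.79), and it was called without library B of wild type (−1.01, adjusted p = 8.6e-05), without library A of TIN normoxia (−0.89, adjusted p = 0.0092) and with a length and GC trend removed (−0.51, adjusted p = 0.037). The GLAD value was −0.77 without library A of wild type (adjusted p = 0.0014) and −1.72 without library B (adjusted p = 1.2e-07).

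**Figure D5:**
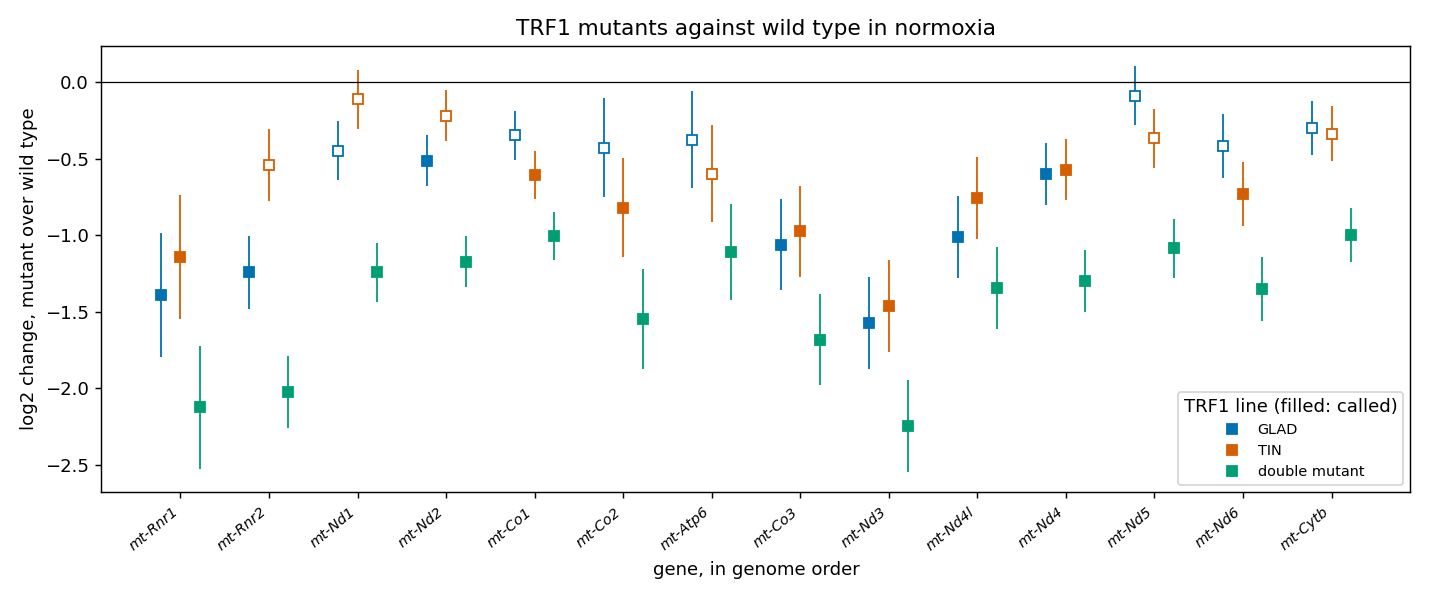
Log2 difference of the 14 tested messengers and ribosomal RNAs between each TRF1 mutant and wild type in normoxia, in genome order, with bars for the standard error from limma and filled points for calls. All 14 points of the double mutant are filled and lie at −0.997 or below, and the GLAD and TIN points all lie below 0 and above the double mutant point of the same gene.

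Ordered by mean level, double mutant hypoxia was lowest for each of the 7 well-counted messengers and wild type normoxia had the highest mean for mt-Nd4, mt-Nd5, mt-Nd6, mt-Cytb, mt-Nd2 and mt-Co1, while TIN hypoxia had the highest mean for mt-Nd1. For mt-Cytb the double mutant averaged 168 ± 29.3 CPM in hypoxia, GLAD 480 ± 137 CPM in hypoxia and the double mutant 776 ± 27.3 CPM in normoxia (SD, n = 2 each). Above these came TIN hypoxia at 1034 ± 104 CPM, TIN normoxia at 1254 ± 369 CPM, GLAD normoxia at 1260 ± 71.2 CPM and wild type normoxia at 1552 ± 167 CPM. The libraries of TIN normoxia overlapped those of TIN hypoxia, GLAD normoxia and wild type normoxia, and those of the other neighbours in this order did not overlap. These levels are a description.

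Averaged over the 3 mutants, nuclear genes that serve mitochondrial transcription were lower in hypoxia or not called. The lists of nuclear genes were put together with earlier results of these data known. Of 10 genes of mitochondrial transcription 6 were lower on average over the 3 mutants, where 36.2% of all genes were lower, and 0 higher, with a median log2 change of −0.26, against a median of −0.03 over all genes. Polrmt, the mitochondrial RNA polymerase, fell by 0.36 ± 0.05 (SE, adjusted p = 2.1e-06). Tfb1m, a methyltransferase that modifies the small-subunit ribosomal RNA, fell by 0.95 ± 0.10 (SE, adjusted p = 2.2e-07), Tefm, the elongation factor, fell by 0.54 ± 0.11 (SE, adjusted p = 0.0003) and Mterf2 fell by 0.41 ± 0.07 (SE, adjusted p = 8.7e-05). Tfam, which packs mitochondrial DNA and binds its promoters, fell by 0.17 ± 0.05 (SE, adjusted p = 0.0047) on average and was called in none of the mutants alone. By mutant, 4 of the 10 genes were lower in GLAD, 5 in the double mutant and 2 in TIN, where 1 was higher. Of all genes 26.0% were lower in GLAD, 29.7% in the double mutant and 27.3% in TIN, where 26.8% were higher.

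Of 21 genes of mitochondrial RNA processing, stability and decay 7 were higher and 8 lower, shares near the 31.2% higher and 36.2% lower among all genes, with a median of 0.00. Lrpprc, which keeps mitochondrial messengers stable, fell in each mutant, with changes of −0.45 ± 0.10 (SE, adjusted p = 0.0012) in GLAD, −1.07 ± 0.10 (SE, adjusted p = 9.5e-08) in TIN and −0.60 ± 0.10 (SE, adjusted p = 5.8e-05) in the double mutant. Its partner Slirp fell in GLAD (−0.24 ± 0.09, SE, adjusted p = 0.035), rose in TIN (0.27 ± 0.09, SE, adjusted p = 0.016) and was at −0.15 ± 0.09 (SE, adjusted p = 0.17) in the double mutant. Fastkd1 fell by 1.14 ± 0.12 (SE, adjusted p = 1.5e-07) and Rexo2, an exonuclease, fell by 0.70 ± 0.05 (SE, adjusted p = 8.4e-10) on average. Of 12 genes of mitochondrial DNA replication and upkeep 6 were higher and 2 lower, beside the same shares of all genes, with Lonp1, a matrix protease, up by 1.43 ± 0.05 (SE, adjusted p = 4.3e-14), Mgme1, a nuclease, by 0.65 ± 0.06 (SE, adjusted p = 5.6e-08) and Tk2, thymidine kinase, by 0.59 ± 0.07 (SE, adjusted p = 1.7e-06). Of 7 coactivators and nuclear respiratory factors 3 were higher and 2 lower, again beside 31.2% and 36.2% of all genes, among them Gabpb1 (0.43 ± 0.06, SE, adjusted p = 1.9e-06), Ppargc1a (−0.59 ± 0.15, SE, adjusted p = 0.0017) and Ppargc1b (−0.55 ± 0.13, SE, adjusted p = 0.0014). By mutant, 0 were higher and 4 lower in TIN (median −0.34), and 5 higher and 0 lower in the double mutant (0.29). In GLAD 2 were higher and 3 lower (0.08). Of all genes 26.8% were higher and 27.3% lower in TIN. The shares were 26.3% and 29.7% in the double mutant and 22.0% and 26.0% in GLAD. Gabpb1 rose most in the double mutant, to 57.1 and 58.4 CPM from 29.3 and 31.0 CPM. Ppargc1a never exceeded 2.45 CPM, and its double mutant libraries overlapped.

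The nuclear subunits of the respiratory complexes were mostly lower too. Averaged over the mutants, 6 of 7 core subunits of complex I, 4 of 4 of complex II, 5 of 9 of complex III, 7 of 11 of complex IV and 15 of 16 of complex V were lower and none was higher, where 36.2% of all genes were lower and 31.2% higher. The medians were −0.35, −0.31, −0.22, −0.22 and −0.26, in the same order. Complex II, which has no mitochondrially encoded subunit, was led by Sdhc (−0.71 ± 0.05, SE, adjusted p = 9.4e-10), with Sdhd (−0.37 ± 0.05, SE, adjusted p = 1.5e-06) and Sdhb (−0.25 ± 0.05, SE, adjusted p = 0.00054). Among complex I subunits Ndufs8 fell by 0.58 ± 0.06 (SE, adjusted p = 9.5e-08) and Ndufs1 fell by 0.57 ± 0.04 (SE, adjusted p = 9.5e-10). In complex III Uqcr11 (−0.35 ± 0.06, SE, adjusted p = 7e-05), Uqcrc2 (−0.32 ± 0.04, SE, adjusted p = 3.9e-06) and Uqcrb (−0.30 ± 0.06, SE, adjusted p = 0.0003) fell, and in complex IV Ndufa4 (−0.79 ± 0.07, SE, adjusted p = 2.9e-08), Cox7b (−0.65 ± 0.08, SE, adjusted p = 1.2e-06) and Cox6c (−0.38 ± 0.07, SE, adjusted p = 7.3e-05). In complex V the changes were −0.81 ± 0.07 (SE, adjusted p = 1.9e-08) for Atp5g1, −0.59 ± 0.07 (SE, adjusted p = 1.2e-06) for Atpif1, an inhibitor of the enzyme, and −0.50 ± 0.04 (SE, adjusted p = 1.5e-08) for Atp5g3.

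The hypoxia effect on these subunits also differed between mutants. Between TIN and GLAD it was higher for 5 of 7 complex I core subunits, 2 of 4 of complex II, 6 of 9 of complex III, 11 of 11 of complex IV and 11 of 16 of complex V, with none lower. The median differences were 0.39, 0.26, 0.54, 0.70 and 0.48 on the log2 scale, in that order. Beside these counts, 17.7% of all genes were called higher and 16.6% lower in the same comparison. In TIN alone, 5 of the 11 complex IV subunits were higher in hypoxia and 1 lower, against 0 higher and 10 lower in GLAD. Of all genes 26.8% were higher and 27.3% lower in TIN, and 22.0% higher and 26.0% lower in GLAD. For Cox7b the hypoxia change was 0.01 ± 0.14 in TIN, −0.84 ± 0.14 in GLAD and −1.12 ± 0.14 in the double mutant (log2, SE). Cox6c, lower on average, had 122.1 and 121.5 CPM in TIN hypoxia, against 89.6 and 110.5 CPM in TIN normoxia. The TIN libraries of Uqcr11 were also higher in hypoxia, and those of Sdhb, Uqcrb, Cox7b and Atpif1 overlapped. Those of Ndufs8, Ndufs1, Sdhc, Sdhd, Uqcrc2, Ndufa4, Atp5g1 and Atp5g3 were lower.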

How the data were processed

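RNA of 14 libraries was sequenced. Reads were aligned with STAR and counted with HTSeq on GRCm38.p4/mm10, per the submitters' processing notes. The deposited CPM were scaled by the authors to a total of 1000000 per library. The values are whole multiples of a small step, from which depth was estimated, but not whole reads, so no count test was run. Symbols and coordinates came from GENCODE vM21, and copies were sought as shared 50, 75 and 100-base words and with BLAST+ 2.17.0 among annotated transcripts. CPM were scaled by TMM and tested with limma 3.58.1 (R 4.3.3) on log2(CPM + 0.5), one coefficient per group, for the 16157 genes that reached 1 CPM in 2 or more libraries. Adjusted p-values follow Benjamini-Hochberg, with a threshold of 0.05. Scripts used Python 3.11.15 and were tested on simulated data. All 37 genes were accounted for, and from each nuclear list up to 3 called members with the largest average change were named, with Polrmt, Tfam, Tefm, Lrpprc and Slirp always; 1 gene that this rule names is not reported here. Members and lists were chosen with earlier results of these data known. The stated border of 100 CPM, and the ratio and share measures, were chosen after the values were seen. Libraries, scaling, pseudocount, filter, fitted groups and a length and GC correction were varied. All columns of the file belong to these samples.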

Additional observations from a re-analysis of the deposited data

Results flagged for a closer look

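These results were picked out because the hypoxia effect itself differed between 2 mutants by an interaction term in the limma model, with an adjusted p below 0.05 over all genes tested. Between TIN and GLAD, 9 messengers differed, and in each the effect was the higher one in TIN. The complex I messengers differed by 1.25 (mt-Nd1), 1.26 (mt-Nd2), 1.49 (mt-Nd4), 1.37 (mt-Nd5) and 1.78 (mt-Nd6) on the log2 scale, and the thinly counted mt-Nd3 by 1.23. mt-Cytb of complex III differed by 1.17, and mt-Co1 and the thinly counted mt-Co2 of complex IV by 0.78 and 1.29. The calls on mt-Nd3 and mt-Co2 were weak. They were lost with a pseudocount of 0.1 CPM (adjusted p = 0.069 and 0.061) and with no filter on low values (adjusted p = 0.15 and 0.12). Several fits that left out a library lost them too. Without library B of TIN normoxia the differences were 0.68 for mt-Nd3 and 0.80 for mt-Co2.

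Between the double mutant and TIN, 9 messengers and 1 ribosomal RNA differed, all lower in the double mutant. The complex I messengers differed by −1.45 (mt-Nd1), −1.73 (mt-Nd2), −2.13 (mt-Nd4), −1.80 (mt-Nd5) and −2.22 (mt-Nd6), and the thinly counted mt-Nd3 and mt-Nd4l by −1.96 and −1.24. mt-Cytb differed by −1.96, mt-Co1 by −0.94 and mt-Rnr2 by −0.999. Between the double mutant and GLAD, mt-Cytb alone of the messengers and ribosomal RNAs differed, by −0.79. Every 2 of these 3 comparisons share the libraries of a mutant.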

How the results depend on the processing

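No call on a member or a named nuclear gene changed direction under any alternative run. Members called, out of 31, ranged over the fits that left out 1 library from 19 to 23 for hypoxia averaged over the mutants (22 with all libraries), 14 to 21 in GLAD (19), 8 to 22 in TIN (12), 12 to 20 in the double mutant (18), 10 to 26 between TIN and GLAD (21), 0 to 1 between the double mutant and GLAD (1), 14 to 26 between the double mutant and TIN (23), 15 to 21 for GLAD against wild type (18), 9 to 28 for TIN against wild type (22) and 28 to 31 for the double mutant against wild type (30). With no filter on low values 7 were called in TIN, 9 between TIN and GLAD, 15 between the double mutant and TIN, 14 for TIN against wild type and 0 between the double mutant and GLAD. In the comparison of the double mutant and GLAD, CPM as deposited and CPM over genes outside the mitochondrial genome gave 0, and fitting only the groups compared gave 3. The share of all genes called in these runs was not determined, and the cause of the shifts was not tested. The letters A and B do not pair the libraries: over 21 pairs of groups the correlation of same-lettered deviations lay between −0.097 and 0.161. With the letter as a replicate block the counts were 23, 22, 11, 20, 21, 1, 23, 23, 23 and 30, in the order of the list above. For single members, the block called mt-Rnr2 in the double mutant (adjusted p = 0.019) and in TIN against wild type (adjusted p = 0.015), called 4 of the 7 well-counted messengers in GLAD against wild type, with 2 in the fit without it, and lost mt-Nd4l in TIN (adjusted p = 0.051).

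For single genes (members and named nuclear genes in each comparison), leaving out 1 library at a time gained 124 calls, lost 378 and left 8038 results on the same side of the threshold. Over the other alternatives 95 calls were gained, 180 were lost and 5215 results stayed on the same side. Levels on the deposited scale were 0.966 to 1.02 times the TMM-scaled ones, and 5 of 63 moved by more than the SD between libraries. The 2 count tests that were planned, edgeR and DESeq2, were not run, since whole reads could not be recovered. Depth limits the thinly counted messengers and transfer RNAs, whose values rest on few reads.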
